A study of Homo sapiens with 6 samples.

Results

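The genes described here are HGF, which encodes hepatocyte growth factor, ST14, which encodes the protease matriptase that can activate it, and SPINT1, which encodes a Kunitz-type inhibitor of that protease. They were picked by gene name because earlier work on these data had shown them far higher in one group. They are 3 of the 7983 genes in the deposited table, and all 3 were found. RNA was sequenced from Kasumi-1, a line of human myeloid leukaemia cells with a fusion of RUNX1 to RUNX1T1. The control group held 3 libraries from cells with a non-targeting guide (sgNT, genotype WT), and the knockout group held 3 libraries from cells with a guide to SETD8 (sgSETD8, genotype SETD8 knockout). SETD8, now named KMT5A, is the methyltransferase that places a single methyl group on a lysine of histone H4, and it was targeted with CRISPR/Cas9. It is not stated whether libraries of one group were separate cultures or separate guides, or whether the cells were a pool or a clone, so the spread between libraries may be technical.

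The table lists only genes whose unadjusted p in the authors' test was below 0.05 (largest 0.049998), and genes outside it were not analysed here. Reads in the listed genes ran from 10966349 to 12557974 per library. KMT5A itself read 1191, 1212 and 1255 in control and 880, 933 and 939 in knockout libraries (log2 -0.41, SE 0.07, limma adjusted p = 5.65e-05), and reads over the whole gene do not show the edit itself. Of 16 myeloid blast markers, 15 were in the table and tested, 9 higher, 4 lower and 2 not called, where 47.3% of all tested genes were called higher and 46.7% lower. The most abundant marker, KIT, fell from 60704 ± 955 to 43551 ± 793 (SD, n = 3). MPO, myeloperoxidase, fell from 12254 ± 373 to 1541 ± 27.3, while the granule protein gene AZU1 rose from 26.3 ± 5.57 to 305 ± 56.6 and CD33, a myeloid surface receptor, from 435 ± 53.6 to 990.0 ± 35.3. RUNX1 rose from 4262 ± 82.8 to 6691 ± 524, and reads over the whole gene do not separate the fusion from intact RUNX1. RUNX1T1, the fusion partner, was at 2760 ± 75.3 in control and 3054 ± 123 in knockout libraries. It was not called (limma adjusted p = 0.0542). CD34 was at 7153 ± 283 in control and 7818 ± 85.1 in knockout libraries and was not called (limma adjusted p = 0.0695). AZU1, CD33, RUNX1T1, ELANE and LYZ, and CLDN4 below, were picked with their values already seen. Values below are the authors' normalized read counts. A log2 fold change compares knockout with control after adding 1 to each value, so that of a low gene is understated.

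HGF is secreted as an inactive chain that resembles a serine protease zymogen but has no protease activity of its own. Cleavage by a trypsin-like protease, such as matriptase, hepsin or HGF activator, turns it into the form that activates the receptor tyrosine kinase MET. SPINT1 and SPINT2, also called HAI-1 and HAI-2, are membrane-bound inhibitors of these proteases, and matriptase and SPINT1 are usually found together on epithelial cells. HGF is best known as a product of stromal cells that acts on epithelium, and blood cells of the myeloid lineage can also make it.

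HGF (ENSG00000019991, hg38 chromosome 7, 81699008 to 81770438, minus strand) read 95.04, 106 and 104 in the control libraries. In the knockout libraries it read 26685, 25833 and 25994. Every knockout library was far above every control library, and the spread within a group was small: 102 ± 5.84 against 26171 ± 453 (SD, n = 3). The ratio of the means was 257, and the log2 fold change was 8.00 (SE 0.05). HGF took 307 reads in all control libraries and 79455 in all knockout libraries. Of the 7516 genes whose mean over libraries reached 10, none had a larger log2 rise than HGF, which ranked 1.

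ST14 (ENSG00000149418, chromosome 11, 130159562 to 130210376, plus strand) read 517, 573 and 498 in control and 3181, 3418 and 3297 in knockout libraries. The groups did not overlap. The mean went from 529 ± 38.6 to 3299 ± 118, a ratio of 6.23 and a log2 fold change of 2.64 (SE 0.07). It ranked 94 among the tested genes by size of rise.

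SPINT1 (ENSG00000166145, chromosome 15, 40844018 to 40858207, plus strand) read 16.4, 27.2 and 16.8 in control and 330.4, 353 and 323 in knockout libraries. The groups did not overlap here either, though control 2 stood above the other control libraries. The mean went from 20.1 ± 6.14 to 336 ± 15.9, with a log2 fold change of 4.03 (SE 0.23) and a rank of 29. Only 61 reads over the control libraries carry its control level, against 1019 in knockout, so its fold change is the least precise of the 3. SPINT1-AS1, a gene annotated on the opposite strand, overlaps SPINT1, and without a stated strand setting the reads of the pair cannot be told apart.

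No test is given for these differences, since they are what the genes were chosen for. Groups that do not overlap are common in this preselected table: 95.4% of the tested genes had none, 48% in the higher direction, so nothing follows from the absence of overlap alone. The authors' deposited table gave log2 fold changes of 8.01, 2.64 and 4.05 for HGF, ST14 and SPINT1. The plot by library shows the gap between groups beside the spread within them.

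**Figure D1:**
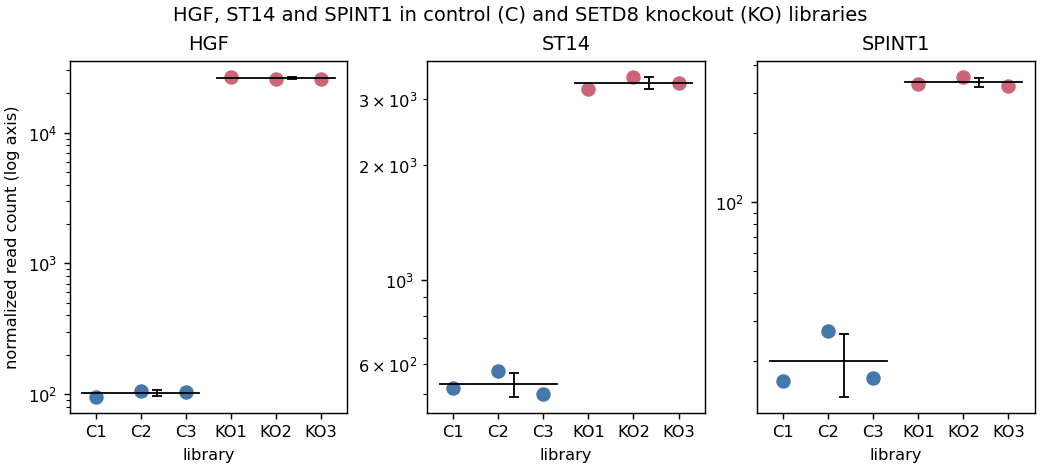
Normalized read counts (log axis, own range per panel) of HGF, ST14 and SPINT1 in control libraries (blue, C1 to C3) and SETD8 knockout libraries (red, KO1 to KO3). Horizontal lines are group means and bars are SD (n = 3); HGF went from about 102 to 26171, ST14 from 529 to 3299 and SPINT1 from 20.1 to 336.

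Sequences around annotated RefSeq starts of HGF and SPINT1 are shown because these genes differ in the same direction and their start regions can be compared. RefSeq entries on GRCh38.p14 were found for 2 of the 3 genes, HGF and SPINT1, and each window runs from 250 bases before to 50 bases after an annotated start. Capitals mark matches, on either strand, to any of 7 searched motifs: RUNX (TGTGGT), ETS (CCGGAA), PU.1 (GAGGAA), AP-1 (TGANTCA), C/EBP (TTGCNNCAA), GC box (GGGCGG) and TATA box (TATAAA). The HGF window is chr7:81769998-81770297, minus strand, and the first of 2 SPINT1 windows is chr15:40843798-40844097, plus strand. The HGF window lies wholly within the gene span given above, so its RefSeq start is inside that span and not at its edge.
HGF: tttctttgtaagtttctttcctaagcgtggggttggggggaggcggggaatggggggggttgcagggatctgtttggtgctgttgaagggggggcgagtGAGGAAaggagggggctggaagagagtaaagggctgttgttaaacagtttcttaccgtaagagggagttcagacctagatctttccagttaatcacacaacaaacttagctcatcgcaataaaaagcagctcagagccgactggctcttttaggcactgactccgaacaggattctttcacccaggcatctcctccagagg
SPINT1: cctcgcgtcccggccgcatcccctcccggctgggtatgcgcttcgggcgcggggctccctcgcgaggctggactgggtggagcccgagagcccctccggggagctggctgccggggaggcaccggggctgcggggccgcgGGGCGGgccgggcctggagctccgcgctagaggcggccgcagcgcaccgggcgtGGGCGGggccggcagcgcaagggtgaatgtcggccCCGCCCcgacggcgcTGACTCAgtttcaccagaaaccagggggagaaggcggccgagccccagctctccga
Base composition differs widely between them, at 51% G and C for HGF and 77.7% for SPINT1, against a median of 58.7% over 35116 windows of the same length. The HGF window holds 1 PU.1 match, 151 bases before the start, and no match to the other 6 motifs. Of all windows, 27.9% hold that PU.1 motif. In the SPINT1 window there are 3 GC boxes, present in 45.0% of all windows, and 1 AP-1 match 6 bases before the start, present in 7.71%. The second SPINT1 window, chr15:40844227-40844526, lies wholly within the span of SPINT1 and holds 1 PU.1 match. RUNX matches, found in 13.1% of all windows, are absent from all 3 windows. A match is a string of letters, not a measured binding site, and its absence says nothing about distant elements.

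Divided by the deposited gene length, the order of levels changed. The length of the transcripts present was not measured, so the order between genes and the size of their ratios rest on that divisor. In control libraries SPINT2 had the highest level of these genes, at 161 ± 19.7 normalized reads per kb, followed by ST14 at 122 ± 8.87, HGF at 10.4 ± 0.595, SPINT1 at 5.69 ± 1.73 and MET at 5.29 ± 1.89. SPINT1 and MET did not differ beyond their spread there. In knockout libraries HGF led at 2666 ± 46.1 per kb, followed by ST14 at 758 ± 27.2, SPINT2 at 474 ± 5.295, SPINT1 at 94.8 ± 4.48 and MET at 14.6 ± 0.532, and every step in that order was larger than the spread of either neighbour. Among 7016 protein-coding genes of the table ranked per kb, HGF moved from places 6352 to 6375 to places 111 to 132. ST14 moved from places 3620 to 3948 to places 666 to 740, and SPINT1 from places 6467 to 6591 to places 4111 to 4286.

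Within a library, the balance of protease to inhibitor transcript depended on which inhibitor was counted. The ratio of ST14 to SPINT1 per kb was 25.8, 17.1 and 24.1 in control and 7.84, 7.87 and 8.31 in knockout libraries. Every knockout ratio was below every control ratio, with a log2 difference of -1.46 (a 2.75-fold lower geometric mean). With SPINT2 added to SPINT1, the direction turned. That ratio was 0.817, 0.700 and 0.691 in control and 1.28, 1.37 and 1.36 in knockout libraries, a log2 difference of 0.86. This difference rests on the deposited lengths, which weight the inhibitors in the sum. The log2 difference for ST14 to SPINT1 alone was the same without division by length. SPINT2 exceeded SPINT1 by 29.3 ± 5.31 times per kb in control and by 5.00 ± 0.206 times in knockout libraries. The ratio of ligand to receptor, HGF to MET, was 1.39, 1.91 and 3.27 in control and 191, 173 and 183 in knockout libraries. These ratios are built from genes chosen for their difference and are given without a test.

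**Figure D2:**
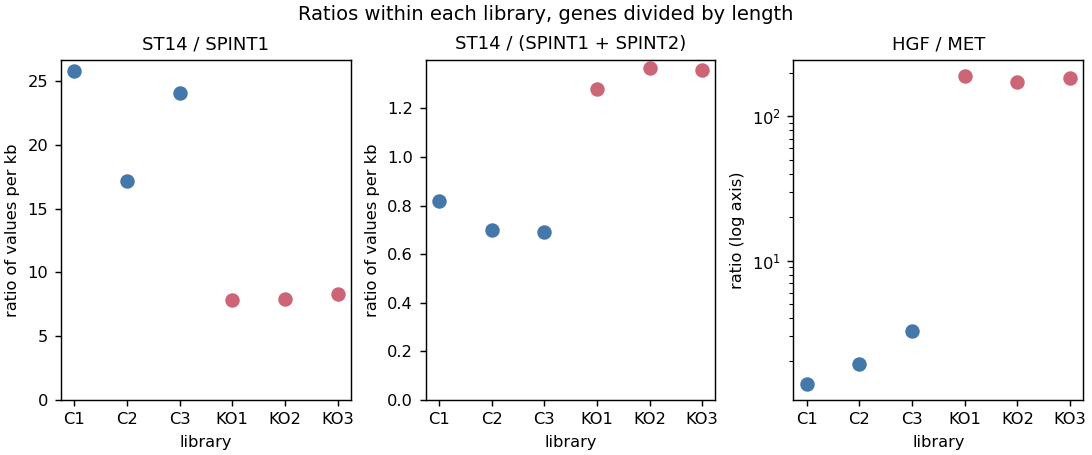
Ratios of values per kb within each library, control in blue (C1 to C3) and SETD8 knockout in red (KO1 to KO3). ST14 over SPINT1 was lower in all knockout libraries (7.84 to 8.31), ST14 over the sum of SPINT1 and SPINT2 was higher (1.28 to 1.37), and HGF over MET (log axis) went from at most 3.27 to at least 173.

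The other genes of the pathway came from 6 lists that held 125 genes without the 3 described above. Of these, 73 were in the table and 72 had a mean of at least 10. By limma-trend, with adjustment over 19860 genes, 32 of the 72 were higher, 37 were lower and 3 were not called, with a median log2 fold change of -0.18. Over all 7516 tested genes, 94.1% were called, 47.3% higher and 46.7% lower, with a median of 0.14. The share called among pathway genes is thus near that of the whole table, which the authors' selection fixed, and the values of single genes carry the description below. Each list count below stands against these same shares, and nothing is read from a split near them. Of the 72, 5 (ETS1, HMOX1, NRP2, PLAT and SDC3) had a mean below 10 in one group and passed the filter only through the group where they were high, so they had to differ. They are in the counts, and their values are given without a test.

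Among 15 other proteases that can activate HGF or its relatives, 4 were in the table, 3 were tested, 2 were higher and 1 was lower. PLAU, the urokinase plasminogen activator, read 591, 729 and 654 in control and 928, 1021 and 1004 in knockout libraries, a log2 fold change of 0.58 (SE 0.09, limma adjusted p = 8.31e-06). PLAT, the tissue plasminogen activator, was at 1.02, 2.92 and 1.98 in control and 57.3, 78.4 and 54.2 in knockout libraries. Its control level rests on 6 reads. F12, coagulation factor XII, fell from 62.0 ± 9.94 to 23.9 ± 6.04 (limma adjusted p = 0.000954). HPN, which encodes hepsin, the protease most often named beside matriptase for HGF, was under the filter, with 0 reads in control and 15 over the knockout libraries.

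Of 17 other type II transmembrane serine proteases, the family of ST14, 3 were in the table and 2 were tested, 1 higher and 1 lower. TMPRSS4 fell from 100.4 ± 7.51 to 16.4 ± 10.9 (log2 -2.71, SE 0.35, limma adjusted p = 1.34e-06). TMPRSS9 rose from 20.3 ± 6.49 to 51.0 ± 4.64 (log2 1.33, limma adjusted p = 0.00244).

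Of 9 other protease inhibitors listed with SPINT1, 4 were tested, 2 were higher, 1 was lower and 1 was not called. SPINT2 read 733, 937 and 837 in control and 2483, 2472 and 2431 in knockout libraries, a log2 fold change of 1.56 (SE 0.08, limma adjusted p = 3.09e-13). No knockout library came near the control range. SERPINF2, the inhibitor of plasmin, rose from 14.6 ± 1.51 to 63.5 ± 8.10. SERPINE2, protease nexin 1, an inhibitor of thrombin and urokinase, fell from 336 ± 27.1 to 41.4 ± 13.8 (log2 -3.04, SE 0.21, limma adjusted p = 9.48e-11). SERPINB1, an inhibitor of neutrophil proteases, was at 17677 ± 111 and 19514 ± 1279 and was not called (limma adjusted p = 0.0746).

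Genes with Kunitz domains, the fold that SPINT1 uses to block proteases, had 17 other members, of which 4 were in the table: SPINT2, APP, APLP2 and TFPI. SPINT2, APP and APLP2 were called higher. APP, the amyloid precursor protein, rose from 12046 ± 404 to 25373 ± 841 and its relative APLP2 from 12204 ± 211 to 18332 ± 235. TFPI, the tissue factor pathway inhibitor, had 3 reads in all control libraries together and 121 in all knockout libraries, and it passed the filter only through the latter. The other 13 genes of the list were outside the table and were not analysed here. Of 17 matriptase substrates and partners, 4 were in the table and 3 were tested, and all of these were called higher. Of all tested genes 94.1% were called and 47.3% were higher, so nothing is read from that count or from the Kunitz count. ADGRG6, an adhesion receptor, rose from 149.6 ± 10.3 to 703 ± 43.6, SERPINA1, alpha-1 antitrypsin, from 357 ± 11.3 to 654 ± 28.7, and the surface protein EPCAM from 1349 ± 78.2 to 1936 ± 96.9. EPHA2, a receptor tyrosine kinase, was under the filter, with 18 reads in control and 1 in knockout libraries.

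MET, the receptor of HGF, was low in every library. It read 49.1, 39.9 and 22.8 in control and 100.1, 107 and 102 in knockout libraries, so the groups did not overlap. Its log2 fold change was 1.51 (SE 0.27, limma adjusted p = 8.13e-05), carried by 112 reads in control and 313 in knockout libraries. Its relative MST1R was outside the table and was not analysed here. MST1, the ligand of MST1R and the closest relative of HGF, fell from 158 ± 20.1 to 91.5 ± 2.48 (limma adjusted p = 0.00111). MST1 has near-identical pseudogene copies, so its reads may be split between them.

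Ligands, receptors and co-receptors without HGF had 7 higher and 5 lower of 12 tested, from 17 in the list. The neuropilins, which bind HGF and semaphorins, had values that went opposite ways. NRP1 read 2453, 2468 and 2425 in control and 758, 754 and 707 in knockout libraries (log2 -1.73, SE 0.07, limma adjusted p = 3.88e-15). NRP2 read 3.07, 0 and 2.97 in control in control and 102, 149.9 and 133 in knockout libraries, with 6 reads in all control libraries. NRP1 remained above NRP2 per kb in knockout libraries, at 64.2 ± 2.45 against 9.23 ± 1.74.

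Both syndecans in the table, heparan sulfate proteoglycans that can hold HGF at the cell surface, had lower values in knockout libraries. SDC1 fell from 109.6 ± 11.99 to 24.4 ± 7.27 (log2 -2.15, SE 0.27, limma adjusted p = 8.45e-07). SDC3 was at 95.1 ± 15.0 in control and 5.37 ± 3.04 in knockout libraries, with 16 reads in all knockout libraries. SDC2 and SDC4 were outside the table. CD44, whose long isoforms act as a MET co-receptor, and PLXNB1, a semaphorin receptor that pairs with MET, were picked with their values already seen. CD44 fell from 19928 ± 714 to 16381 ± 518, and PLXNB1 rose from 67.0 ± 11.7 to 175 ± 19.5. The counts do not separate CD44 isoforms.

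**Figure D3:**
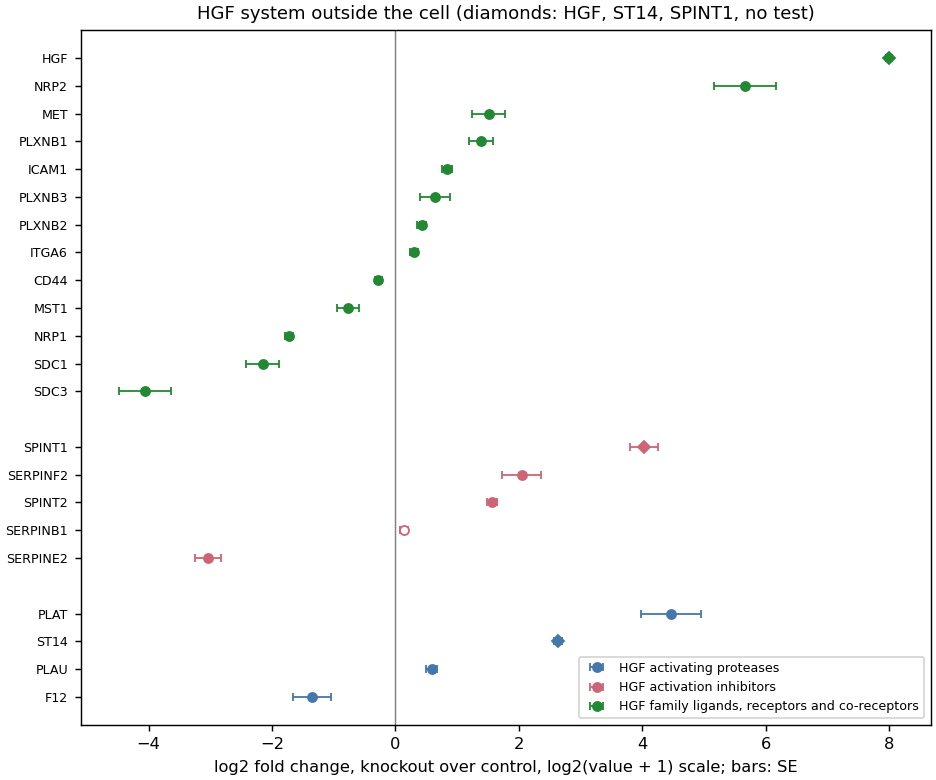
Log2 fold change, knockout over control, of the tested proteases (blue), inhibitors (red) and ligands, receptors and co-receptors (green), with SE bars from 3 libraries per group. The bars are limma's moderated SE for circles and the SE from each gene's own libraries for diamonds. Diamonds are HGF, ST14 and SPINT1, for which no test is given, and the open circle is SERPINB1, which was not called. PLAT, NRP2 and SDC3 are drawn filled but passed the filter through 1 group only, and no test is given for them. Values run from -4.05 for SDC3 to 8.00 for HGF.

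Inside the cell, the adaptors and kinases that MET uses had log2 fold changes between -1.04 and 0.86. Of 39 in the list 30 were tested, 14 were higher, 15 were lower and 1, NRAS, was not called. The higher count was 7 with upper-quartile scaling, 9 without control 2 and 8 without SETD8 knockout 2, while the lower count stayed between 13 and 15 in those settings. RAPGEF1, an exchange factor for RAP1, fell from 2552 ± 157 to 1243 ± 41.4 (log2 -1.04, SE 0.06, limma adjusted p = 1.83e-11), while RAP1B, a small GTPase it can activate, rose from 4725 ± 176 to 7515 ± 525. STAT3, a transcription factor activated by MET, fell from 4999 ± 222 to 2860 ± 134, and PIK3CA, a catalytic subunit of PI3 kinase, from 1395 ± 109 to 822 ± 28.6. HRAS rose from 359 ± 7.07 to 655 ± 44.6. GAB1, the main docking protein of MET, and GRB2, the adaptor that links it to MET, were picked with their values already seen. GAB1 fell from 361 ± 15.3 to 232 ± 9.05 (limma adjusted p = 0.000118) and GRB2 from 9442 ± 245 to 7711 ± 245.

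Of 20 listed genes that end MET signalling, 9 were tested, 3 were higher and 6 were lower. Over all tested genes 47.3% were higher and 46.7% lower, so nothing is read from that split. The lower count was 4 to 5 when any library was left out, with 4 without SETD8 knockout 2 and 4 without SETD8 knockout 3. CBL, the ubiquitin ligase that sends MET for degradation, read 6303, 6219 and 5926 in control and 3569, 4089 and 4526 in knockout libraries (log2 -0.60, SE 0.07, limma adjusted p = 2.02e-07). PTPRJ, a receptor phosphatase that acts on MET, rose from 327 ± 45.9 to 933 ± 53.9 (log2 1.52, SE 0.10, limma adjusted p = 7.27e-11). PTPRB, another receptor phosphatase, rose from 35.3 ± 6.76 to 74.9 ± 12.9. Of the proteases that shed MET from the surface, ADAM10 rose from 5125 ± 285 to 6713 ± 61.8 and ADAM17 fell from 1113 ± 41.4 to 673 ± 59.7.

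Target and feedback genes of ERK, a kinase downstream of MET and of many other receptors, are also a readout of growth signals in general. Of 25 in the list 14 were tested, 4 were higher, 9 were lower and 1, MYC, was not called. Over all tested genes 46.7% were lower. PHLDA1 read 448, 360 and 422 in control and 106, 120 and 131 in knockout libraries (log2 -1.77, SE 0.14, limma adjusted p = 7.81e-10). EGR1, an immediate early transcription factor, fell from 140 ± 7.50 to 46.1 ± 12.4, and the ETS factor ETV4 from 42.8 ± 18.9 to 10.1 ± 4.24. HMOX1, heme oxygenase 1, and ETS1, another ETS factor, had low levels throughout. HMOX1 was at 2.95 ± 1.92 and 18.1 ± 10.1, and ETS1 at 7.87 ± 5.33 and 32.9 ± 8.56, in control and knockout libraries. With genes under a mean of 50 left out, the list had 2 higher and 8 lower genes.

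Some further genes of this list were picked with their values already seen. ETV5, an ETS factor, fell from 2182 ± 139 to 1097 ± 45.5. SPRY1 and SPRY2, feedback inhibitors of receptor tyrosine kinases, fell from 1015 ± 40.1 to 729 ± 26.0 and from 916 ± 43.6 to 704 ± 12.04. DUSP4, a phosphatase of MAP kinases, went the other way, from 422 ± 81.5 to 872 ± 102. PLAUR, the receptor of urokinase, fell from 976 ± 83.9 to 590 ± 22.7 while its ligand gene PLAU rose. DUSP6 and SPRY4, also on the list, were outside the table and were not analysed here.

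**Figure D4:**
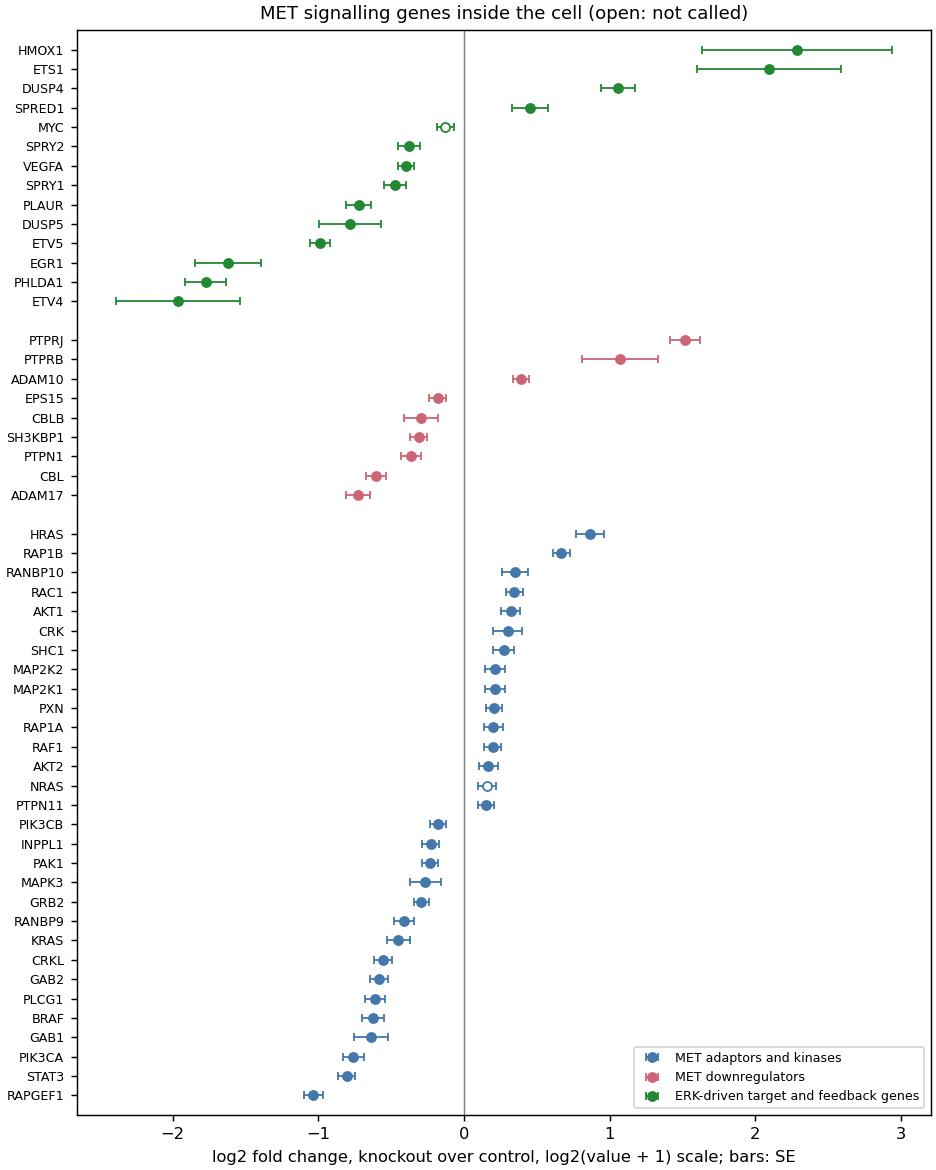
Log2 fold change, knockout over control, of tested MET adaptors and kinases (blue), MET downregulators (red) and ERK-driven target and feedback genes (green), with SE bars from 3 libraries per group. Open circles (NRAS and MYC) were not called. ETS1 and HMOX1 are drawn filled but passed the filter through 1 group only, and no test is given for them. The adaptors lie between -1.04 for RAPGEF1 and 0.86 for HRAS, and PHLDA1, EGR1 and ETV4 are the lowest of the ERK list.

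The surroundings of the 3 genes differed. Within 500 kb of HGF the GENCODE release 29 annotation has 1 other protein-coding gene, CACNA2D1, which encodes a calcium channel subunit. CACNA2D1 had 0 reads in all 3 control libraries and read 102, 86.4 and 79.4 in the knockout libraries. Against a floor of 3 reads over the control group, it was at least 84.6-fold higher. It passed the filter only through the knockout libraries, so no test is given. AC006145.1, annotated antisense within the span of CACNA2D1, also had 0 reads in control and 37 over the knockout libraries, and without strand its reads cannot be told from those of CACNA2D1. The nearest table gene on the other side, GNAI1, which encodes a G protein subunit and whose lower coordinate lies 1931 kb from HGF, fell from 740 ± 54.1 to 163 ± 8.58 (log2 -2.17, limma adjusted p = 6.30e-13).

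Around ST14, 4 of 7 protein-coding genes within 500 kb were in the table. ZBTB44, a zinc finger gene whose annotated span begins 16.3 kb from the end of ST14, fell (log2 -0.54, limma adjusted p = 1.15e-07), and so did PRDM10, another zinc finger gene (log2 -0.96). APLP2, described above, lies on the other side and rose by log2 0.59. ADAMTS8, a secreted metalloprotease gene 195 kb beyond ST14, had 4 reads in control and 132 in knockout libraries, and it too passed the filter only through the knockout libraries. The nearest table genes on the 2 sides of ST14, APLP2 and ZBTB44, thus moved in opposite directions.

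Around SPINT1, 10 of 52 annotated genes were in the table, all tested and called, 8 higher and 2 lower, where 94.1% of all tested genes were called and 47.3% were higher. They had log2 fold changes from -0.89 to 1.41, far below that of SPINT1. DLL4, the gene at 1.41, was at 7.63 ± 2.08 in control and 21.7 ± 4.42 in knockout libraries. It passed the filter only through the latter, so it had to differ, and it is in the counts without a test of its own. The higher count fell to 5 without control 1 and to 5 without SETD8 knockout 2. The lower count was 1 without control 1, control 2, SETD8 knockout 1 or SETD8 knockout 2. ZFYVE19, whose lower coordinate lies 36.9 kb before SPINT1, fell by 0.44 on the log2 scale (limma adjusted p = 0.00730). VPS18, a gene of endosomal trafficking 36.2 kb after SPINT1, rose by 0.34 (limma adjusted p = 0.00103), and OIP5, a centromere gene, by 0.86 (limma adjusted p = 0.000157).

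**Figure D5:**
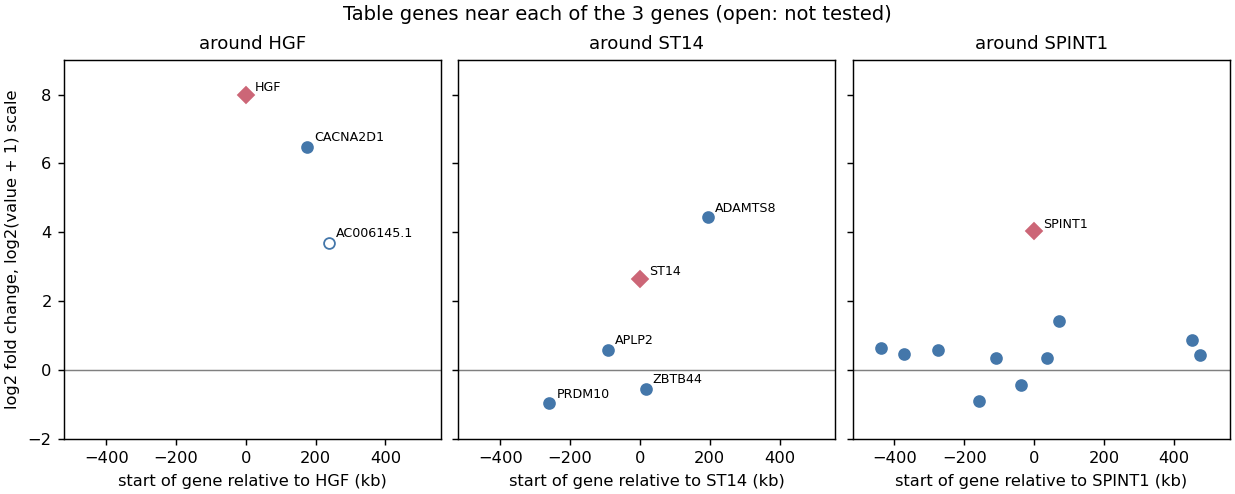
Log2 fold change of table genes whose lower coordinate lies within 500 kb of HGF, ST14 or SPINT1 (blue circles; open, not tested) against distance in kb, with the gene itself as a red diamond at 0. CACNA2D1 beside HGF and ADAMTS8 beside ST14 lie at 6.49 and 4.44, while the genes around SPINT1 stay between -0.89 and 1.41.

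Profiles were compared by the root mean square difference over the 6 libraries of log2(value + 1), each gene set to its own control mean, among 6418 protein-coding genes whose mean reached 50. By this measure no gene came close to HGF: the nearest were PCBD1, a pterin enzyme and transcription cofactor, at 1.12, CLEC4D, a myeloid lectin receptor, at 1.41 and FCGBP, an IgG Fc binding protein, at 1.44. PCBD1 and CLEC4D had 2 reads each over the control libraries, where adding 1 lowers the log2 fold change. Their ratios of means were 214 and 152, and that of FCGBP was 72.3, against 257 for HGF. The nearest to ST14 were PALLD, an actin-binding protein, at 0.13, CXorf21 at 0.15 and IL18R1, a chain of the interleukin-18 receptor, at 0.15. For SPINT1 they were HSBP1L1 at 0.27, SYT1, a synaptotagmin, at 0.37 and SLAMF8, a myeloid surface receptor, at 0.42. The genes named for HGF and SPINT1 had control means below 50 and passed this filter only through the knockout libraries. With 2 groups of 3 libraries this measure mostly reads the size of the difference between groups.

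Genes that mark cell types known for HGF, ST14 or SPINT1 were read in the same table. Of 28 epithelial markers 5 were in the table and 4 were tested, 2 higher and 2 lower, with summed values from 8254 to 9212 in control and from 7402 to 7538 in knockout libraries, most of it from JUP, a catenin family protein that fell. EPCAM rose as given above, and ESRP1, an epithelial splicing factor, rose from 184 ± 6.31 to 487 ± 25.0. GRHL1, an epithelial transcription factor, fell from 70.7 ± 7.39 to 22.3 ± 5.15 (log2 -1.64, limma adjusted p = 8.80e-05), and CLDN4, a tight junction protein, was under the filter, with 28 reads in control and 4 in knockout libraries. Of 17 stromal markers 4 were in the table and tested, 2 higher, 1 lower and 1 not called. Their summed values ran from 81.7 to 90.9 in control and from 102 to 157 in knockout libraries. COL1A1, COL1A2 and PDGFRA were outside the table and were not analysed here. FN1, fibronectin, was at 9.95 ± 1.70 in control and 43.8 ± 17.2 in knockout libraries and passed the filter only through the latter. PDGFRB, at 5.60 ± 3.44 in control and 30.9 ± 5.86 in knockout libraries, passed it in the same way. ACTA2, at 15.9 ± 6.21 in control and 34.9 ± 17.1 in knockout libraries, was not called (limma adjusted p = 0.0835). FBN1, fibrillin, fell from 54.8 ± 11.5 to 26.6 ± 4.15, a call that ended without control 1 (limma adjusted p = 0.0622). Of 10 endothelial markers 2 were in the table and both were called higher, as were 47.3% of all tested genes, so nothing is read from that count. They were ESAM, an adhesion molecule, from 101 ± 34.9 to 710.3 ± 62.1, and TIE1, a receptor kinase, from 95.7 ± 17.4 to 214 ± 25.8. Their sum ran from 169.6 to 217 in control and from 880 to 953 in knockout libraries. Of 16 lymphoid and erythroid markers 5 were in the table, with sums from 1554 to 1605 and from 2143 to 2385. The part of such cells in the HGF, ST14 and SPINT1 differences was not tested, and in bulk RNA fewer cells of a kind cannot be told from less RNA per cell.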

How the data were processed

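Poly-A RNA from 6 Kasumi-1 libraries was prepared with a directional kit, per the labels' protocols. HISAT2, DESeq2 and the build hg38 are named per the submitters' processing notes. Versions, the gene counter and its strand setting were not stated there. The deposited values are a signal, the authors' read counts divided by 1 size factor per library: dividing by the value of 1 read gave whole numbers within 0.001 for 100% of values, less certain in control 3 and SETD8 knockout 2, whose step is near 1. The authors also deposited a log2 fold change, an unadjusted p-value and its adjusted form per gene, whose ratio shows adjustment over 19860 genes.

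Genes with a mean of at least 10 (7516; 467 left out) were tested with two-sided limma-trend tests (R 4.3.3 with limma 3.58.1) of log2(value + 1), with Benjamini-Hochberg adjustment over 19860 genes, and called at adjusted p below 0.05. All tests thus ran on genes preselected for a difference. On simulated counts the test was checked for recovery of known changes. The members, gene lists and naming rule were chosen with earlier results of these data known. Genes named here were taken mainly from the members, the 5 largest changes per list, the highest markers, the nearest profiles and the neighbours. Not every gene under the naming rule is described. Alternatives were TMM and upper-quartile scaling, edgeR 4.0.16 and DESeq2 1.42.0 on recovered reads, other filters and pseudocounts, adjustment over the table's genes, a replicate block and leaving out each library. Within groups, libraries differed beyond counting noise (chi-square per degree of freedom 3.83 to 11.9), so none was treated as a repeat. Sequences are from RefSeq (GRCh38.p14) and gene spans from GENCODE 29, which gave the 3 genes the same coordinates as the table.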

Additional observations from a re-analysis of the deposited data

How the results depend on the processing

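HGF, ST14 and SPINT1 kept the direction of their log2 fold change in every setting tried, and no named or listed gene reversed. With 1 library left out at a time, the log2 fold change ran from 7.95 to 8.03 for HGF, from 2.60 to 2.70 for ST14 and from 3.91 to 4.26 for SPINT1. The log2 ratio of ST14 to SPINT1 per kb was -1.46, ran from -1.64 to -1.34 with a library left out, and was -1.16 with a pseudocount of 5, which weighs most on the low SPINT1 control values. A pseudocount of 1 for that ratio was added after seeing the data. Leaving out a library gave 6141 to 6517 called genes in all (3053 to 3281 higher, 3057 to 3258 lower) and 57 to 67 pathway genes (24 to 32 higher, 33 to 37 lower). No pairing by replicate number was seen, as deviations of same-numbered libraries had correlations of 0.0086, -0.0033 and -0.050. The labels do not say whether libraries were paired, and these correlations cannot settle it. With a replicate block 7091 genes and 68 of 72 pathway genes were called. Of 133 named or listed genes tested, 115 were tested in all 16 settings and 18 in 15, since a mean under 50 leaves them out of that setting. Of the 133, 108 kept their call in every setting that tested them, 19 lost it in at least 1 and 6 gained one. SERPINB1 and MYC were among those that gained a call, SERPINB1 in 3 settings and MYC in 7. Depth limits the genes with few control reads, such as SPINT1, MET, PLAT and NRP2, and genes outside the deposited table were not analysed here.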
